A study of Homo sapiens with 40 samples.

Results

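Untreated MDA-MB-231 cells of lot II were compared with untreated cells of lot I after 24 h of culture. The comparison took its 8 arrays from the sample labels alone: 4 mock-treated cultures of each lot at 24 h, of 40 arrays in the series. MDA-MB-231 is an established human breast cancer cell line that lacks oestrogen receptor and grows with a mesenchymal shape. RNA was hybridised to Human Gene 1.0 ST arrays, which carry probes along the whole transcript, and every level below is a deposited log2 value.

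The series set out to follow zoledronate, a bisphosphonate that blocks farnesyl diphosphate synthase, and fluvastatin, a statin that blocks an earlier step of the same mevalonate pathway. Lot I, with 24 arrays, held untreated cells and cells given 30 µM zoledronate or 2 µM fluvastatin, each at 12 h and 24 h. Lot II, with 16 arrays, held untreated cells and cells given 100 µM zoledronate at 24 h, and untreated cells and cells given 30 µM zoledronate at 48 h. Each of these 10 groups had 4 arrays. All cells were the same line, with no engineered change, grown in DMEM with fetal bovine serum, and untreated here means mock-treated.

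The labels do not say what a lot is. A difference between the cells and anything else that may have gone with the lot therefore cannot be told apart. The labels call the replicates independent without saying which cultures they came from, so the p-values measure the spread between these arrays. On arrays the number of arrays, here 4 per group, limits the precision. In whole-population RNA, fewer cells of a kind and less RNA per cell cannot be told apart either.

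Some background helps in reading the genes. Small nucleolar RNAs (snoRNAs) are short nuclear RNAs, mostly cut from the introns of host genes, that guide chemical modification of ribosomal RNA. Those of the box C/D class guide 2'-O-methylation and those of the box H/ACA class guide pseudouridylation. Interferon-stimulated genes and the immunoproteasome serve antiviral defence and antigen presentation, and the respiratory chain is the electron transport system of mitochondria.

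The cells of both lots had part of the marker pattern listed for the line. VIM, the mesenchymal intermediate filament vimentin, stood at 12.21 ± 0.04 in lot I and 12.32 ± 0.05 in lot II (log2, SD, n = 4 each). CDH1, epithelial cadherin, stood at 4.82 ± 0.07 and 4.6 ± 0.16, and ESR1, the oestrogen receptor, at 4.83 ± 0.34 and 4.8 ± 0.08. None of these passed the test, with adjusted p = 0.31, 0.17 and 0.88 (limma, Benjamini-Hochberg over all genes). CD44 and AXL, listed as present, stood at 10.93 and 11.39 in lot I, and PGR and GATA3, listed as low, at 4.54 and 6.48. Other listed markers went against the pattern. SPARC, listed as present, stood at 5.6 in lot I and 5.39 in lot II, below the array medians. EPCAM, ERBB2 and FOXA1, listed as low or absent, stood above them, at 8.13, 7.94 and 7.26 in lot I and 8.22, 7.73 and 7.36 in lot II. The loading genes GAPDH and ACTB differed by 0.04 and 0.06 log2, with adjusted p = 0.71 and 0.63. None of 17 blood and immune cell markers and none of 16 fibroblast and endothelial markers passed. The mean level over the blood list ran from 5.08 to 5.14 on the lot I arrays and from 5.01 to 5.17 on those of lot II, and that over the fibroblast and endothelial list from 5.06 to 5.12 and from 5.01 to 5.07.

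The arrays correlated at 0.991 to 0.995 within lot I at 24 h, at 0.994 to 0.997 within lot II and at 0.987 to 0.991 between the lots (Pearson's r over 18417 genes, which are not independent replicates). The median level of an array was 6.98 to 7.01 in lot I and 6.95 to 6.97 in lot II, a difference of -0.03. An exact two-sided permutation test of that difference gave p = 0.029, the smallest that 4 arrays against 4 can give. The lower quartile differed by -0.01 and the upper quartile by -0.02, with exact permutation p = 0.657 and 0.457.

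Of 18417 genes, 3158 passed an adjusted p of 0.05 between the lots at 24 h, which is 17.1% (limma on the 16 untreated arrays, Benjamini-Hochberg). Lot II was higher at 1313 genes (7.13%) and lower at 1845 (10.0%). Differences of at least 1.5-fold among them numbered 168 higher (0.912%) and 220 lower (1.19%). The median difference over all genes was -0.02, and the median size of a called difference was 0.39 log2. The groups of 4 arrays did not overlap at 4193 genes (22.8%), and 2747 genes (14.9%) were both called and without overlap. With lot II replicate 2 left out 2103 genes were called and with lot II replicate 3 left out 2018, and 1606 genes were called whichever single array was left out. Centring each array on its own median, which shifts all genes by 0.03, turned the split between directions from 41.6% higher to 53.6% higher, with 1665 genes higher and 1442 lower. New quantile normalization gave 48.0% higher, so the balance of directions depends on the scaling.

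A second set of untreated arrays, none of them in the 24 h group means, also crosses the lots. All untreated arrays entered the same limma fit, so both lot comparisons share each gene's estimate of spread. Same-numbered arrays within a lot also correlated, at 0.261 (limma, lot and number as a random block). The calls of the 24 h comparison and of this set are therefore not independent. Lot II at 48 h minus lot I at 12 h had 4924 called genes (26.7%), but there the lot and the hours in culture differ together. In the same direction, 1823 genes were called in both sets, which is 57.7% of the 24 h calls and 37.0% of the other set's calls. Of these, 670 were higher in lot II and 1153 lower, and 2907 of the 3158 genes called at 24 h had the same sign in the other set. Opposite calls were made for 32 genes, of which 27 were snoRNA genes, the others being CATSPER2, H3-3B, LRRC18, RNVU1-15 and RNVU1-19. For the hours themselves, 24 h against 12 h within lot I had 0 calls in limma (972 genes, 5.28%, at an unadjusted p under 0.05), and 48 h against 24 h within lot II had 168 (0.912%). These 2 time comparisons share arrays with the lot comparison and did not pair the same-numbered arrays of a lot.

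**Figure D1:**
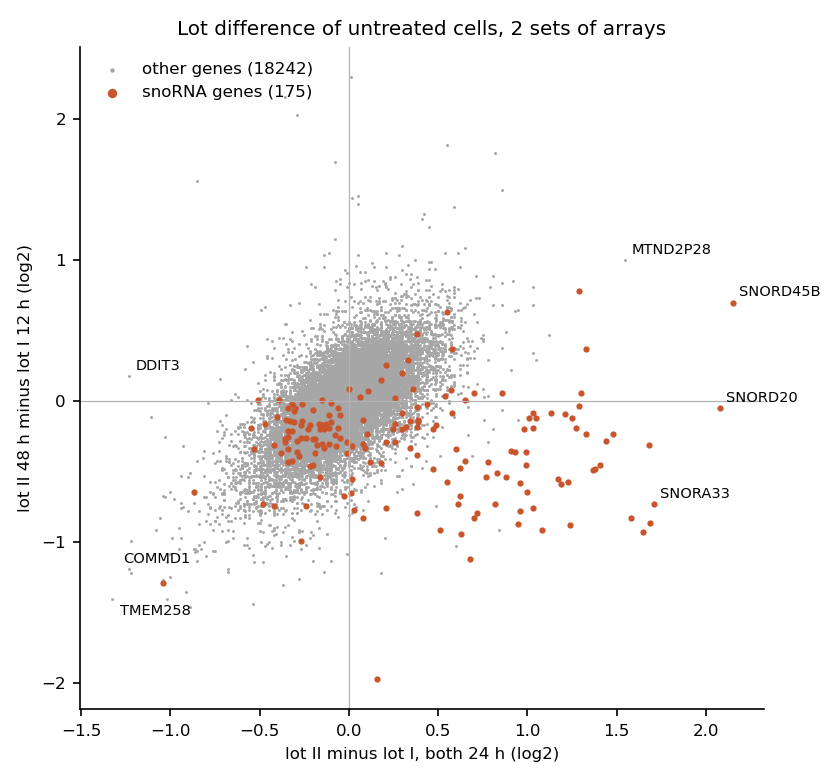
Each point is 1 of 18417 genes. The horizontal axis is the lot II minus lot I difference at 24 h and the vertical axis that of lot II at 48 h minus lot I at 12 h, both in log2, and the 175 snoRNA genes are in orange. TMEM258 and COMMD1 lie low on both axes, whereas snoRNA genes such as SNORA33 lie far right at or below 0 on the vertical axis.

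Of the 12 largest falls among called genes without overlap, 8 were at genes that lay lower on every lot II array of the series than on any lot I array. Over all genes that share was 1.8%. The 40 arrays include the 8 by which these falls were picked, so the count of 8 is partly set by the choice. TMEM258 encodes a small subunit of the oligosaccharyltransferase complex, which attaches sugars to new proteins. It read 11.08, 10.72, 10.79 and 10.47 on the lot I arrays and 9.56, 9.33, 9.35 and 9.49 on those of lot II. The difference was -1.33 ± 0.12 log2 (SE), 2.52-fold lower, with limma adjusted p = 4e-06. No lot II array reached the lowest lot I array, and over all 40 arrays, treated ones included, lot I ran from 10.4 to 11.08 and lot II from 9.21 to 9.56.

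COMMD1, a regulator of copper transport and NF-kB, read 9.46, 9.16, 9.28 and 9.12 in lot I and 7.92, 7.91, 8.05 and 8.27 in lot II. It fell by 1.22 ± 0.11 log2 (adjusted p = 4e-06), and the groups did not overlap. The ribosomal protein gene RPS28 read 12.81, 12.73, 12.76 and 12.81 against 11.75, 11.77, 11.71 and 11.8. It fell by 1.02 ± 0.07 log2 (adjusted p = 2.8e-07), the SD within each lot was 0.04, and a further pair of probe sets annotated to it gave -1.02 and -1.01. RPS28 has near-identical copies in the genome, so these probe sets may not be independent.

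RBX1, the RING subunit of cullin ubiquitin ligases, read 9.38, 9.95, 9.85 and 9.71 against 8.67, 8.69, 8.73 and 8.64 and fell by 1.04 ± 0.14 (adjusted p = 0.00013). POLR3K, a subunit of RNA polymerase III, read 10.64, 10.68, 10.78 and 10.35 against 9.71, 9.65, 9.51 and 9.49 and fell by 1.02 ± 0.14 (adjusted p = 0.00013). Neither gene's groups overlapped. HSPB8, a small heat shock protein, fell by 1.22 ± 0.2 (adjusted p = 0.00075) and varied more in lot I, with 7.42, 7.93, 8.43 and 8.49 against 6.81, 6.83, 6.71 and 7.03. S100A3, a calcium-binding protein, fell by 1.03 ± 0.18, the odorant receptor gene OR2L3 by 1.04 ± 0.19 and ST20 by 1.0 ± 0.11, with adjusted p = 0.001, 0.0013 and 4.1e-05.

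DDIT3, the stress transcription factor CHOP, was lower in lot II at 24 h. It read 7.84, 7.59, 8.1 and 7.89 in lot I and 6.59, 6.62, 6.79 and 6.5 in lot II, a fall of 1.23 ± 0.29 (adjusted p = 0.0077). The groups did not overlap. At 48 h the untreated lot II arrays ran from 6.7 to 8.71, and lot II at 48 h minus lot I at 12 h gave 0.18 (adjusted p = 0.68). The difference between these 2 lot differences did not pass (adjusted p = 0.2). The rest of its list of 30 integrated stress and amino acid genes had no other call, with a list median of -0.04, against 21 higher and 0 lower and a median of 0.71 at 48 h against 12 h.

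Rises outside the small RNAs were mostly smaller. THOC7, a subunit of the complex that couples transcription to mRNA export, read 9.67, 9.58, 9.69 and 9.51 in lot I and 10.45, 10.52, 10.68 and 10.48 in lot II. It rose by 0.92 ± 0.08 (adjusted p = 3.7e-06) with no overlap, and over all 40 arrays lot I reached 9.99 and lot II began at 10.21. MTND2P28, a nuclear pseudogene near identical to mitochondrial ND2, rose by 1.55 ± 0.14 (adjusted p = 4e-06), from 11.03, 11.01, 10.56 and 10.57 to 12.4, 12.42, 12.36 and 12.18. Its probes cannot separate the copy from the mitochondrial transcript. The early growth response gene EGR1 rose by 0.86 ± 0.19, the BMP receptor BMPR2 by 0.78 ± 0.12 and the actin-regulating ASAP1 by 0.81 ± 0.11, with adjusted p = 0.0049, 0.00046 and 0.00016 and no overlap.

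Over all 40 arrays, 380 genes (2.06%) separated the lots completely, whatever the treatment or time. All 16 lot II arrays lay below all 24 lot I arrays at 331 genes (1.8%) and above at 49 (0.266%). The widest gaps among those below were at TMEM258, RPS28, COMMD1, RBX1, SDF2 and LAGE3, with gaps of 0.84, 0.76, 0.66, 0.53, 0.51 and 0.49 log2 between the nearest arrays. The widest above were at THOC7, the kinase MAP4K5, ARHGEF12, the endoplasmic reticulum oxidase ERO1A, PHF3 and the splicing factor subunit SF3B6, with gaps of 0.23, 0.22, 0.17, 0.16, 0.15 and 0.15. SDF2, a protein of the endoplasmic reticulum, fell by 0.78 ± 0.07 and LAGE3 by 0.8 ± 0.1 at 24 h.

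**Figure D2:**
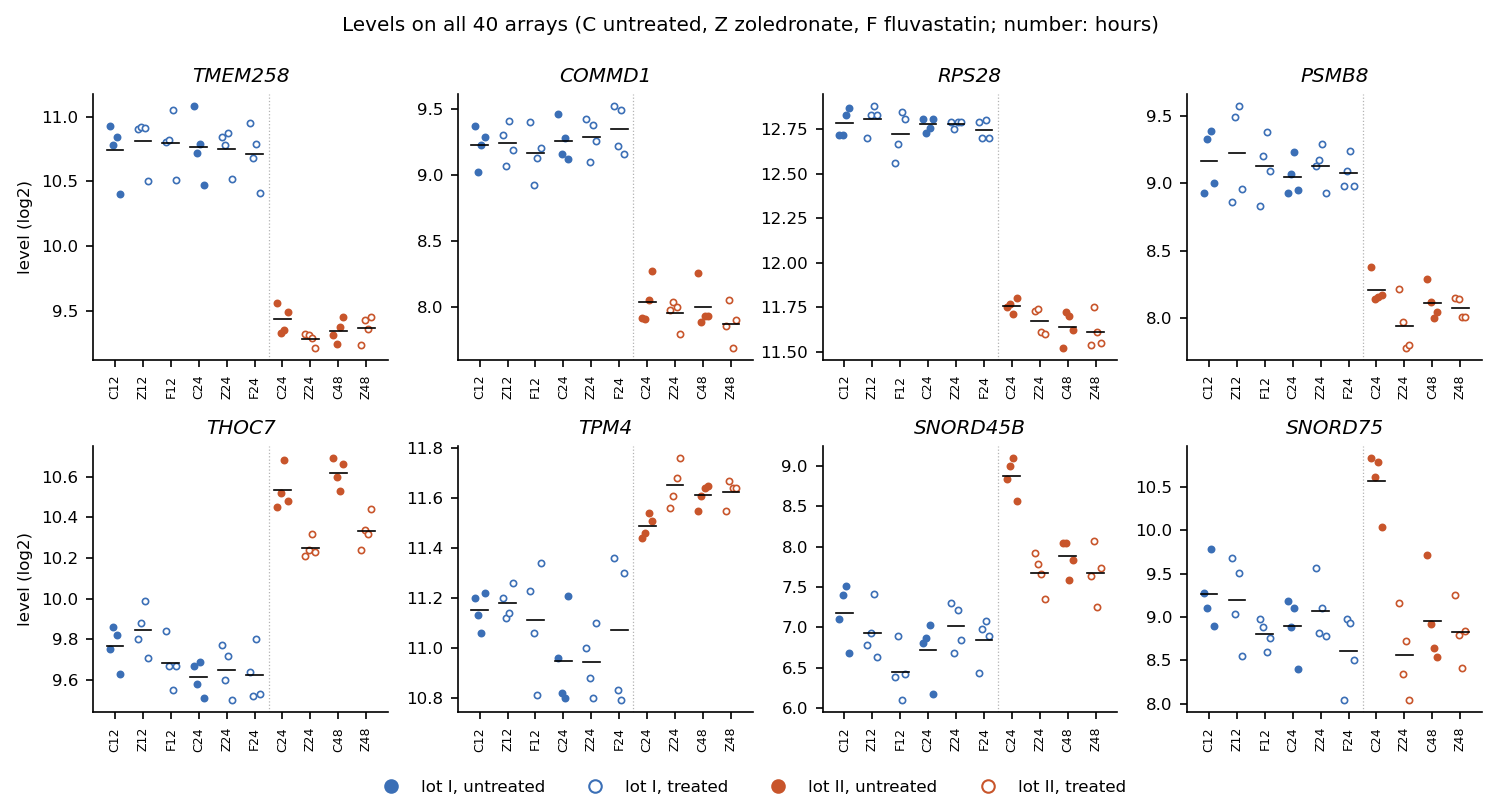
Levels (log2) of 8 genes on all 40 arrays in the 10 groups, lot I in blue and lot II in orange, untreated arrays filled, treated open, with black lines at group means. TMEM258, COMMD1, RPS28 and PSMB8 lie lower and THOC7 and TPM4 higher on every lot II array, whereas SNORD45B and SNORD75 stand highest in untreated lot II cells at 24 h alone. The TPM4 probe set drawn rose by 0.54 at 24 h, and a further, dimmer TPM4 probe set gave 0.22 (limma adjusted p = 0.15 over all probe sets).

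The snoRNA genes made up most of the largest rises. Of 175 measured, 70 were higher in lot II at 24 h, 14 lower and 91 did not pass, so 48.0% were called beside 17.1% of all genes, and their median difference was 0.21 beside -0.02. They were 36 of the 40 largest rises among called genes without overlap. Of the 112 box C/D genes 47 were higher and 14 lower, and of the 61 box H/ACA genes 23 were higher and 0 lower. Leaving out any 1 of the 8 arrays gave 62 to 74 higher.

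SNORD45B, a box C/D snoRNA, had the largest rise of any gene. It read 6.81, 6.87, 7.03 and 6.18 in lot I and 8.84, 9.0, 9.09 and 8.56 in lot II, a rise of 2.15 ± 0.18 (4.45-fold, adjusted p = 3.7e-06). SNORD20 read 3.85, 4.13, 4.59 and 3.85 against 6.39, 6.18, 6.29 and 5.88 and rose by 2.08 ± 0.25 (adjusted p = 6.1e-05). The box H/ACA SNORA33 read 5.74, 5.71, 6.26 and 5.97 against 7.71, 7.61, 7.75 and 7.45 and rose by 1.71 ± 0.17 (adjusted p = 9.1e-06). For each of these 3 the lot II arrays lay more than 1 log2 unit above the highest lot I array.

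The snoRNAs nested in GAS5, a non-coding gene that hosts several box C/D snoRNAs in its introns, all rose. The 7 that were measured rose by between 0.62 and 1.68, led by SNORD75, which read 9.18, 8.89, 9.1 and 8.4 in lot I and 10.83, 10.62, 10.79 and 10.04 in lot II. The difference was 1.68 ± 0.24 (adjusted p = 0.00027) with no overlap. SNORD44, named after its values were seen, read 9.7, 9.91, 9.88 and 9.38 against 11.19, 11.16, 11.11 and 10.72 and rose by 1.33 ± 0.2 (adjusted p = 0.00032). GAS5 itself was not analysed here, since its probe sets are each annotated to a snoRNA as well.

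Of all measured snoRNA genes, 81 lay within exactly 1 measured host, 61 hosts in all. The median difference of these 81 was 0.38 and that of the hosts 0.12, with no test of the difference. The snoRNA had the larger value in 55 pairs and not in 26. Among the latter, SNORA23 differed by 0.01 (adjusted p = 0.99) in IPO7, a nuclear import receptor that rose by 0.46 ± 0.08, and SNORD41 fell in TNPO2, which differed by -0.01 ± 0.09 (adjusted p = 0.94). Both were picked after their values were seen. RABGGTB, a subunit of a prenyltransferase and the host of SNORD45A, SNORD45B and SNORD45C, rose by 0.62 ± 0.11 where these rose by 1.29, 2.15 and 1.33. NCL, the nucleolar protein nucleolin, rose by 0.33 ± 0.09 where SNORD20, SNORD82 and SNORA75 in its introns rose by 2.08, 1.69 and 1.17. RPS3, a ribosomal protein gene, differed by 0.06 ± 0.09 (adjusted p = 0.67), and SNORD15A and SNORD15B within it rose by 1.27 and 0.54.

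The lower snoRNA genes were of another kind. Of the 14, 12 were copies of SNORD113 to SNORD116, which lie in imprinted clusters. These copies had low values in lot I, at means between 2.07 and 4.8, and 0 of the 46 measured were higher, with a median difference of -0.27. The copies are close relatives, so their probes may share signal. The count of lower snoRNA genes moved from 14 to 9 with median centring and to 5 with new quantile normalization, and it fell to between 6 and 9 without lot I replicate 1 or 3 or lot II replicate 1, 2 or 3. The other lower pair was SNORD13, at -0.87 ± 0.12, and SNORD41, which read 10.08, 9.95, 10.02 and 9.42 against 8.81, 8.84, 8.69 and 8.99 and fell by 1.04 ± 0.15 (adjusted p = 0.0003). Of the 129 snoRNA genes outside these copies 70 rose and 2 fell, with a median of 0.49.

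The snoRNA level was highest on the untreated lot II arrays at 24 h and not on the other lot II arrays. The median over the 175 genes was 6.52 to 6.73 on these 4 arrays and 5.59 to 6.48 on the other 36. It was 5.96 to 6.16 in untreated lot I at 24 h, 5.66 to 6.13 in untreated lot II at 48 h and 5.59 to 5.96 in lot II at 24 h with 100 µM zoledronate. At 44 snoRNA genes all 4 untreated lot II arrays at 24 h lay above all the other 36 arrays, of 93 genes of any kind that did so. In the second set of arrays 3 snoRNA genes were higher and 55 lower, with a median of -0.26. Of the 70 genes higher at 24 h, 3 were higher there, 27 lower and 40 without a call. SNORD45B was 1 of the 3, at 0.7 (adjusted p = 0.0093).

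The difference between the 2 lot differences was itself tested in the same limma fit, a contrast added after the data were seen. It was called at 71 genes (0.386%), of which 65 (0.353%) were larger at 24 h, 50 of these snoRNA genes, and 6 (0.0326%) smaller. SNORA33 differed by 2.44 between the sets and SNORD75 by 1.99, with adjusted p = 4.4e-05 and 0.0088. The U1 small nuclear RNA variant RNVU1-15, a spliceosomal RNA with near-identical copies, went the same way with 1.75 (adjusted p = 0.0094), and so did the ribosomal protein gene RPL32 with 1.08 (adjusted p = 0.0012). RPL32 read 7.85, 7.74, 7.87 and 7.6 in lot I and 8.79, 8.67, 8.82 and 8.59 in lot II at 24 h. The cyclin gene CCND2 and the stress regulator CREBRF lay among those smaller at 24 h, with -1.18 and -1.22 (adjusted p = 0.026 and 0.036). Their lot II means were 7.38 and 6.96 at 24 h and 8.32 and 7.94 at 48 h. CCND2, CREBRF and RNVU1-15 were named after their values were seen.

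**Figure D3:**
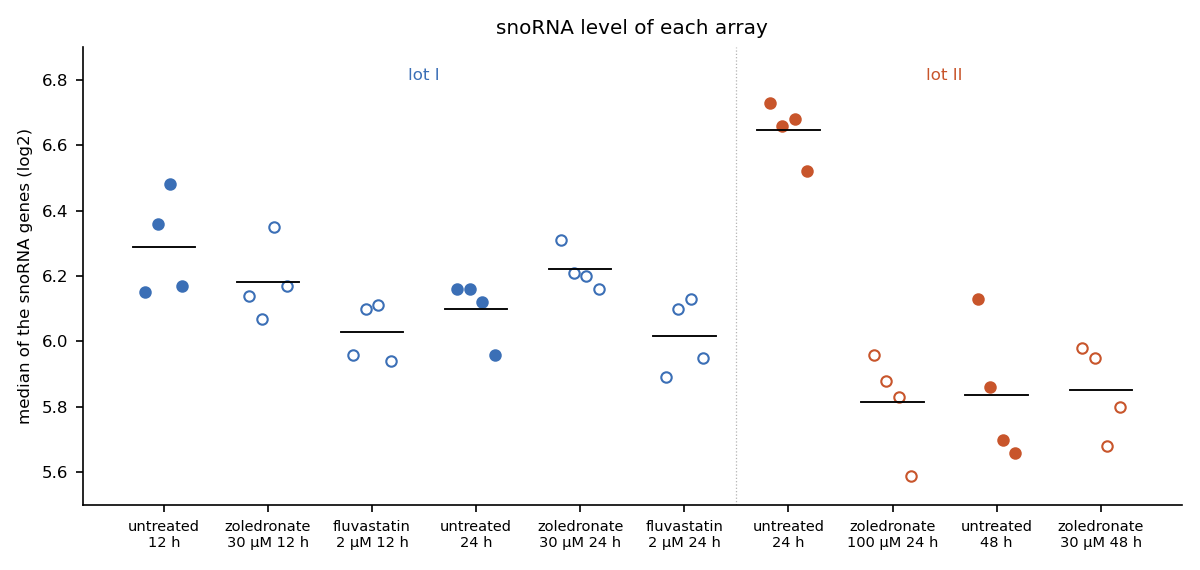
Median level of the 175 snoRNA genes (log2) on each of the 40 arrays by group, lot I in blue and lot II in orange, untreated arrays filled, treated open, with black lines at group means. The 4 untreated lot II arrays at 24 h sit between 6.52 and 6.73, above every other array.

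For miRNA genes the array reads the gene's transcript and not the mature miRNA. Of 173 measured miRNA genes 4 were higher and 21 lower, 14.5% called beside 17.1% of all genes. The mature sequences below are shown because genes that share a seed, the bases 2 to 8 that pair with targets, were called in opposite directions at 24 h. They are from RefSeq (GRCh38.p14), written 5' to 3' with the seed in capitals, and 164 of the 173 genes were in that table.
hsa-miR-15a-5p: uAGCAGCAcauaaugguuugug
hsa-miR-15b-5p: uAGCAGCAcaucaugguuuaca
hsa-let-7a-5p: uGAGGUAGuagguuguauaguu
hsa-let-7c-5p: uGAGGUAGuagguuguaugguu
hsa-let-7e-5p: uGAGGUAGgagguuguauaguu
hsa-let-7f-5p: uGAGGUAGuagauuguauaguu

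The first pair shares the seed AGCAGCA. MIR15A (chr13:50049167-50049188, minus strand) read 6.08, 5.91, 5.16 and 5.44 in lot I and 4.23, 4.63, 4.64 and 5.07 in lot II, and fell by 1.0 ± 0.18 (adjusted p = 0.0012). MIR15B (chr3:160404607-160404628, plus strand) read 3.33, 3.4, 3.63 and 3.43 against 4.41, 3.77, 4.39 and 3.98 and rose by 0.69 ± 0.16 (adjusted p = 0.0078). Neither gene's groups overlapped. In the second set of arrays MIR15A gave -0.64 and MIR15B -0.39 (adjusted p = 0.014 and 0.084), so the opposite signs were not seen there. The level of MIR15B was low, within the range of the SNORD113 to SNORD116 copies. The other 3 measured genes with this seed, MIR16-1, MIR16-2 and MIR195, did not pass.

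The other 4 sequences carry the seed GAGGUAG of the let-7 family, repressors of growth genes. Of 10 measured family genes 5 were lower, 1 was higher and 4 did not pass, beside 17.1% called of all genes. MIRLET7E read 5.06, 4.99, 5.31 and 5.23 against 4.29, 4.34, 4.35 and 4.79 and fell by 0.71 ± 0.15 (adjusted p = 0.0034). MIRLET7C fell by 0.63 ± 0.11 and MIRLET7F2 by 0.66 ± 0.17, with adjusted p = 0.00089 and 0.013. The levels of MIRLET7C, MIRLET7F2 and MIRLET7A1 were low, with lot I means of 3.22, 4.49 and 4.68, within the range of the SNORD113 to SNORD116 copies. MIRLET7F1 fell by 0.49 ± 0.12 (adjusted p = 0.012), a call lost when all 40 arrays entered the fit, and MIRLET7A1 by 0.38 ± 0.12 (adjusted p = 0.036), a call lost with 7 of the 8 arrays left out in turn. Against these, MIRLET7A2 read 5.08, 5.37, 4.75 and 5.36 in lot I and 6.14, 6.22, 6.51 and 6.16 in lot II, and rose by 1.12 ± 0.17 (adjusted p = 0.00041) with no overlap. MIRLET7A1 and MIRLET7A2 encode the same mature sequence at different places, chr9:94175962-94175983 (plus strand) and chr11:122146568-122146589 (minus strand). In the second set MIRLET7E, MIRLET7C and MIRLET7F2 gave -0.8, -0.32 and -0.58 (adjusted p = 0.0008, 0.033 and 0.019). MIRLET7F1 and MIRLET7A1 gave 0.02 and -0.18 there (adjusted p = 0.92 and 0.27), and MIRLET7A2 0.47 (adjusted p = 0.049). The miRNA genes other than MIR15A were named after their values were seen.

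In the respiratory chain all called genes were lower. Of 37 measured subunits 15 were lower and 0 higher, 40.5% called beside 17.1% of all genes, with a median of -0.26 beside -0.02. COX8A, of cytochrome c oxidase, read 10.38, 10.56, 10.66 and 10.18 in lot I and 9.65, 9.65, 9.54 and 9.73 in lot II, and fell by 0.8 ± 0.1 (adjusted p = 7.3e-05). NDUFA2, of complex I, read 8.88, 9.0, 9.16 and 8.83 against 8.13, 8.16, 8.21 and 8.25 and fell by 0.78 ± 0.13 (adjusted p = 0.00059). Neither gene's groups overlapped, and over all 40 arrays both were lower on every lot II array than on any of lot I. NDUFB8 of complex I fell by 0.63 ± 0.11 and COX5B of cytochrome c oxidase by 0.55 ± 0.09, with adjusted p = 0.00086 and 0.00075. In the second set of arrays 22 subunits were lower and 3 higher, with a median of -0.32. The 15 called members had a median genomic span of 5.49 kb and the whole list 12.6 kb.

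All called splicing factors were higher. Of 26 measured 11 were higher and 0 lower, 42.3% called beside 17.1% of all genes, with a median of 0.23. Without lot I replicate 1 or 4 or lot II replicate 2 or 3, 7 were higher. HNRNPA2B1, an RNA-binding protein of the spliceosome, read 11.17, 11.29, 11.42 and 11.06 against 11.7, 11.82, 11.86 and 11.68 and rose by 0.53 ± 0.09 (adjusted p = 0.00072). The splicing regulators RBM39, SRSF7 and SRSF10 rose by 0.34 ± 0.07, 0.41 ± 0.09 and 0.44 ± 0.1, with adjusted p = 0.0033, 0.0043 and 0.0068. The groups did not overlap at any of these 4 genes. The list had 3 higher and 2 lower and a median of 0.02 in the second set.

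Some mitosis genes were higher at 24 h. Of 30 measured 8 were higher, 1 lower and 21 did not pass, 30.0% called beside 17.1% of all genes, with a median of 0.19. Without lot II replicate 1 or without lot II replicate 2, 5 were higher. MKI67, the proliferation marker Ki-67, read 10.09, 10.25, 10.15 and 10.48 in lot I and 10.97, 11.05, 11.02 and 10.95 in lot II and rose by 0.76 ± 0.13 (adjusted p = 0.00075). ASPM, a spindle pole protein, rose by 0.55 ± 0.12, CENPF of the kinetochore by 0.44 ± 0.09 and ECT2, which drives cytokinesis, by 0.42 ± 0.08, with adjusted p = 0.0038, 0.004 and 0.0021. The call of CENPF was lost when all 40 arrays entered the fit. UBE2C, the ubiquitin enzyme of the anaphase-promoting complex, fell by 0.4 ± 0.09 (adjusted p = 0.0056), and it is named after its value was seen. In the second set 1 was higher and 9 lower, with a median of -0.1.

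Of 27 genes of G1/S and DNA replication 2 rose, 2 fell and 23 did not pass, 14.8% called beside 17.1% of all genes, with a median of 0.07. PCNA, the sliding clamp, rose by 0.52 ± 0.11 and MCM6 of the replicative helicase by 0.29 ± 0.08, whereas MCM5 and MCM2 of the same helicase fell by 0.36 ± 0.09 and 0.25 ± 0.07, with adjusted p = 0.0038, 0.014, 0.0088 and 0.029. The call of MCM2 was lost with 4 of the 8 arrays left out in turn.

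Genes of ribosome assembly and ribosomal proteins moved both ways. Of 30 ribosome biogenesis genes 7 were higher and 2 lower, 30.0% called beside 17.1% of all genes, with a median of 0.09. Without lot I replicate 2 or without lot II replicate 2, 4 were higher. HEATR1, NPM1 and NOP58, which act in the nucleolus, rose by 0.44 ± 0.08, 0.3 ± 0.07 and 0.29 ± 0.07, and BOP1 fell by 0.51 ± 0.12. Of 3 further NPM1 probe sets, 2 gave 0.3 and 0.32 and a dim one -0.38 (adjusted p = 0.021 over all probe sets), and the call of NPM1 was lost with the mean of its probe sets, at 0.14. Of 43 cytosolic ribosomal protein genes 4 were higher and 6 lower, 23.3% called, with a median of -0.06. Besides RPS28, RPLP2 read 12.37, 12.3, 12.34 and 12.39 against 11.76, 11.58, 11.72 and 11.53 and fell by 0.7 ± 0.07 (adjusted p = 1.7e-05), and RPS13 fell by 0.86 ± 0.1 (adjusted p = 6.4e-05). RPL32 rose by 0.95 ± 0.11 (adjusted p = 3.8e-05). Ribosomal protein genes have many near-identical pseudogenes, so these values are uncertain as values of 1 gene.

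Interferon-stimulated genes that passed were lower. Of 34 measured 7 were lower and 0 higher, 20.6% called beside 17.1% of all genes, with a median of -0.24. Without lot I replicate 1, 13 were lower. IFI6, an interferon-induced mitochondrial protein, read 7.94, 8.05, 8.2 and 8.33 in lot I and 7.33, 7.29, 7.27 and 7.65 in lot II and fell by 0.75 ± 0.12 (adjusted p = 0.00044). OAS1, which makes the activator of RNase L, read 7.57, 7.89, 8.27 and 8.12 against 6.83, 7.13, 7.14 and 7.48 and fell by 0.82 ± 0.17 (adjusted p = 0.0029). The transcription factor IRF1 fell by 0.71 ± 0.15 and OAS2 by 0.6 ± 0.15, with adjusted p = 0.0045 and 0.0093. The groups overlapped at none of these 4 genes.

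Antigen processing genes were mostly lower where called. Of 14 measured 6 were lower and 1 higher, with a median of -0.24 beside -0.02 for all genes. Over all genes the shares were 10.0% lower and 7.13% higher. The second set of arrays had 7 of these genes lower and 1 higher, with a median of -0.34. PSMB8, a catalytic subunit of the immunoproteasome, read 8.93, 9.07, 9.23 and 8.95 in lot I and 8.38, 8.14, 8.16 and 8.17 in lot II and fell by 0.83 ± 0.11 (adjusted p = 0.00012). PSMB9, a further such subunit, fell by 0.78 ± 0.11, the peptide transporter TAP1 by 0.46 ± 0.09 and HLA-DMA, which loads class II molecules, by 0.73 ± 0.14, with adjusted p = 0.00016, 0.002 and 0.0022. The groups did not overlap at any of these 4, and PSMB8 and PSMB9 were lower on every lot II array of the series than on any of lot I. The member that rose was CIITA, the class II transactivator, at 0.32 ± 0.09 (adjusted p = 0.026), and its call was lost with 3 of the 8 arrays left out in turn.

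Promoters of 1 gene from each of these lists are shown because they hold the motif GAAA, any 2 bases, then GAAA, the core of the element through which interferon acts on promoters. It was searched on both strands in the 250 bases before each gene's start and overlapping matches were allowed. Each sequence is from RefSeq (GRCh38.p14), on the gene's strand, with matches in capitals. IFI6 (chr1:27672193-27672442, minus strand) held 3 matches, starting at positions -156, -115 and -93 from the gene's start, and TAP1 (chr6:32853705-32853954, minus strand) held 2 that overlap, starting at -134 and -128.
IFI6: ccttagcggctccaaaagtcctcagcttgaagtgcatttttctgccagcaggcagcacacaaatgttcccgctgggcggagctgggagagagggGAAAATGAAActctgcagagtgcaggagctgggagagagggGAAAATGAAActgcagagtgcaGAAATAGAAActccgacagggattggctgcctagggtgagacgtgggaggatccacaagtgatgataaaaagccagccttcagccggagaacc
TAP1: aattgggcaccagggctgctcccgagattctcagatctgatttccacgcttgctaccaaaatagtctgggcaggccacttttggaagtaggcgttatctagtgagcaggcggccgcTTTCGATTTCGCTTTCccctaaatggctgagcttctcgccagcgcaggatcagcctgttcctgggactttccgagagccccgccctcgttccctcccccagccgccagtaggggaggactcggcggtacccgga

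The motif was in 3.02% of the 35116 promoters of that table. Of the 27 interferon-stimulated genes with a promoter 19 held it, and of the 4 lower ones with a promoter 2 did, IFI6 and MX1. Of 12 antigen processing genes with a promoter 6 held it, and of the 6 lower ones TAP1 alone did. A match describes these letters and not binding.

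Autophagy and lysosome genes and genes linked to p53 had falls and no rise. Of 28 autophagy and lysosome genes 9 were lower and 0 higher, 32.1% called beside 17.1% of all genes, with a median of -0.12. NPC2, which carries cholesterol out of lysosomes, read 10.62, 11.17, 11.02 and 10.87 against 10.11, 9.94, 10.01 and 10.04 and fell by 0.9 ± 0.12 (adjusted p = 0.00015). ATP6V0D1, of the proton pump that acidifies lysosomes, fell by 0.58 ± 0.07 and the sialidase NEU1 by 0.71 ± 0.12, with adjusted p = 0.0001 and 0.00094. Of 21 CDK inhibitors and p53-linked genes 6 were lower and 0 higher, 28.6% called, with a median of -0.11. TP53I3, a p53 target, fell by 0.64 ± 0.1 and the death protein BAX by 0.41 ± 0.08, with adjusted p = 0.00041 and 0.0028. MDA-MB-231 cells carry a mutant p53, so the list's name describes its genes and not the state of the protein.

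At the mevalonate pathway, on which both drugs of the study act, the called genes were lower. Of 16 measured cholesterol synthesis genes 5 were lower and 0 higher, 31.2% called beside 17.1% of all genes, with a median of -0.1. Without lot I replicate 3 or without lot II replicate 1, 2 or 3, 3 were lower. MVK, mevalonate kinase, read 8.13, 8.09, 8.31 and 8.11 in lot I and 7.38, 7.61, 7.74 and 7.81 in lot II and fell by 0.53 ± 0.1 (adjusted p = 0.0022). MVD, the decarboxylase further along the pathway, read 8.96, 8.83, 8.75 and 9.01 against 8.34, 8.46, 8.52 and 8.63 and fell by 0.4 ± 0.09 (adjusted p = 0.0056). Both were without overlap. FDPS, farnesyl diphosphate synthase, the target of zoledronate, differed by -0.09 ± 0.09 (adjusted p = 0.56). Among 18 genes of sterol uptake and its regulation 2 were higher and 0 lower, 11.1% called. These were ACACA of fatty acid synthesis at 0.55 ± 0.13 and the cholesterol exporter NPC1 at 0.45 ± 0.14. The call of NPC1 was lost with 6 of the 8 arrays left out in turn. In the second set the synthesis list had 3 higher and 0 lower and the uptake list 12 higher and 0 lower, with medians of 0.15 and 0.41.

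Genes of the oxidative stress response fell in part. Of 20 measured 5 were lower and 2 higher, 35.0% called beside 17.1% of all genes, with a median of -0.13. Without lot I replicate 3 or 4 or lot II replicate 3, 3 were lower, and 8 without lot II replicate 1. AKR1C3, an aldo-keto reductase of steroids, read 9.01, 9.37, 9.59 and 9.28 against 8.7, 8.07, 8.31 and 8.65 and fell by 0.89 ± 0.14 (adjusted p = 0.00048). Its relative AKR1C1 read 6.75, 7.61, 7.9 and 7.73 against 6.91, 6.17, 6.31 and 6.7 and fell by 0.98 ± 0.21 (adjusted p = 0.0046), with groups that overlapped through lot I replicate 1 and lot II replicate 1. A further AKR1C1 probe set gave -0.49 (adjusted p = 0.075 over all probe sets), and the members of this family are near identical. FTL, the ferritin light chain, fell by 0.42 ± 0.1 and thioredoxin TXN rose by 0.44 ± 0.11, with adjusted p = 0.0084 and 0.01. Of 10 metallothioneins, small zinc-binding proteins with near-identical sequences, 40.0% were called. MT1X, MT1E and MT1F fell by 0.42 ± 0.08, 0.37 ± 0.07 and 0.59 ± 0.12 and MT1H rose by 0.49 ± 0.13.

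Adhesion and cell shape genes moved in both directions. Of 29 YAP and TAZ targets, genes that respond to tension and density, 7 were higher and 1 lower, with a median of 0.14. That is 27.6% called beside 17.1% of all genes. ASAP1 read 9.25, 9.17, 9.02 and 9.53 against 10.09, 10.06, 10.0 and 10.08, and DOCK5, PTPN14 and TEAD1 rose by 0.63 ± 0.13, 0.58 ± 0.12 and 0.48 ± 0.1, with adjusted p = 0.0027, 0.0044 and 0.0034. Of the list's best known targets CCN1 rose by 0.49 ± 0.12 (adjusted p = 0.0096), a call lost when all 40 arrays entered the fit, and CCN2 differed by 0.31 ± 0.14 (adjusted p = 0.14). Of 21 epithelial genes 4 were lower and 0 higher, 19.0% called and near the share of all genes, with a median of -0.16. Keratin KRT8 fell by 0.47 ± 0.09 and claudin CLDN4 by 0.61 ± 0.12, with adjusted p = 0.0016 and 0.0027, and the epithelial count fell to 2 without lot I replicate 3 or lot II replicate 1 or 2. Of 19 mesenchymal genes 4 were higher and 1 lower, 26.3% called, with a median of -0.02. Between 1 and 2 were higher when any array but lot I replicate 4 was left out. Over the mesenchymal list 9 differences were positive and 10 negative. Fibronectin FN1 rose by 0.46 ± 0.12 (adjusted p = 0.012). S100A4, the list's largest called difference, fell by 0.74 ± 0.19 (adjusted p = 0.014), a call lost with 1 of the 8 arrays left out in turn. The collagen COL12A1, of the matrix list, rose by 0.58 ± 0.08 (adjusted p = 0.00027).

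**Figure D4:**
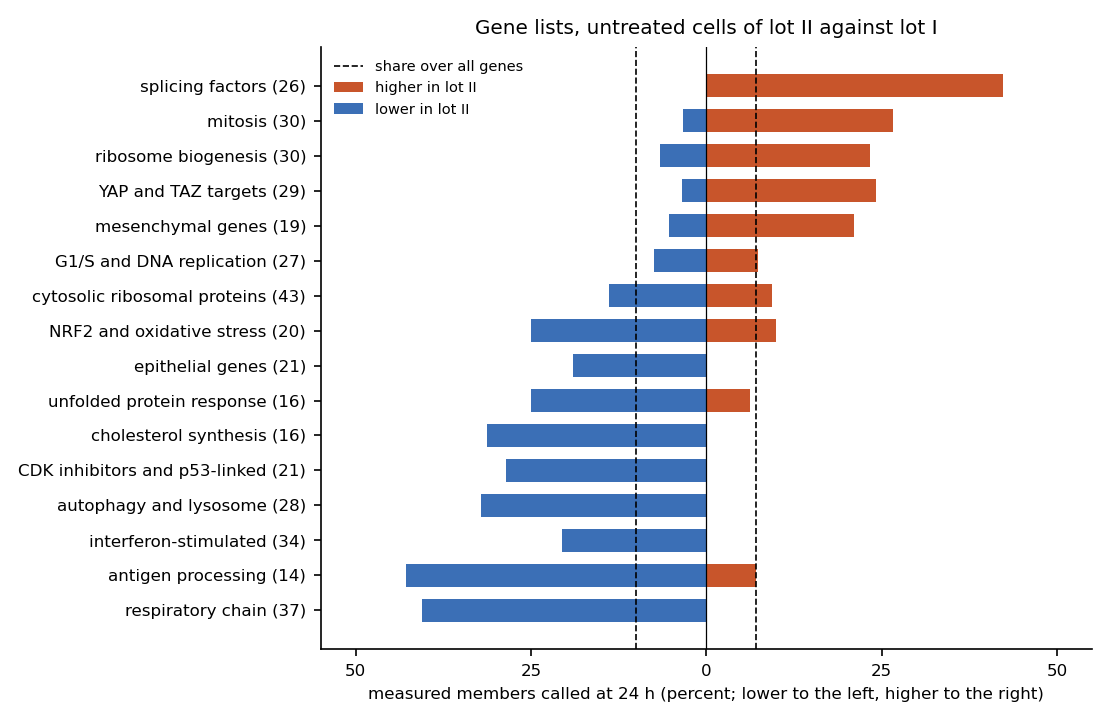
Share of the measured members of 16 gene lists called at 24 h (percent), lower in lot II to the left in blue and higher to the right in orange, with the number measured in brackets and dashed lines at the shares over all genes, 7.13% higher and 10.0% lower. The respiratory chain and antigen processing reach furthest left and splicing factors furthest right.

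Several other lists were called no more often than all genes. None of 18 cancer-testis antigens and none of 7 aryl hydrocarbon receptor genes passed at 24 h. Of 30 hypoxia and glycolysis genes 2 were higher and 1 lower, of 28 cytokine and NF-kB genes 0 and 2, and of 22 immediate early genes 1 and 2. Other genes of interest in this line also failed the test, with EGFR at 0.36 ± 0.15 (adjusted p = 0.094), MYC at -0.09 ± 0.11 (adjusted p = 0.63), CCND1 at -0.12 ± 0.09 (adjusted p = 0.39) and MMP1 at -0.05 ± 0.3 (adjusted p = 0.93). MMP1, a collagenase, varied widely within each lot, with SDs of 0.69 and 0.44.

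Across protein-coding genes, the difference went with genomic span, the distance between a gene's first and last base in RefSeq (GRCh38.p14). Higher genes had a median span of 63.8 kb, lower genes 13.1 kb and all 16902 genes 27.3 kb. With genes cut into 10 equal bins by span, 3.19% were higher and 16.5% lower in the shortest bin, and 12.5% were higher and 3.55% lower in the longest. Spearman's rho between the difference and the span was 0.22 at 24 h and 0.14 in the second set, as a description over 16902 genes that share arrays. It was -0.07 for 24 h against 12 h within lot I. The 331 genes below in all of lot II had a median span of 8.16 kb over their protein-coding members, and the 49 above 61.7 kb.

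The share of calls also differed between chromosomes. On chromosome 19, 1.46% of 1236 protein-coding genes were higher and 16.7% lower, and on chromosome 22 2.68% of 373 were higher and 14.7% lower. On chromosome 13, 12.9% of 280 were higher and 5.0% lower. Chromosome 14 had 10.3% of 526 higher and 7.98% lower, and chromosome 5 10.1% of 732 and 8.33%, with lower shares nearer that of all genes. The medians stayed small, from -0.08 on chromosome 19 to 0.02 on chromosomes 2 and 13. The G and C content of the 300 bases around the gene's start, known for 13770 protein-coding genes, had a Spearman's rho of 0.04 with the difference. It was 63.9% in the median for higher genes and 63.7% for lower genes. RNA quality and labelling, which can act by transcript length, have no values here and their part in the span pattern was not tested.

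**Figure D5:**
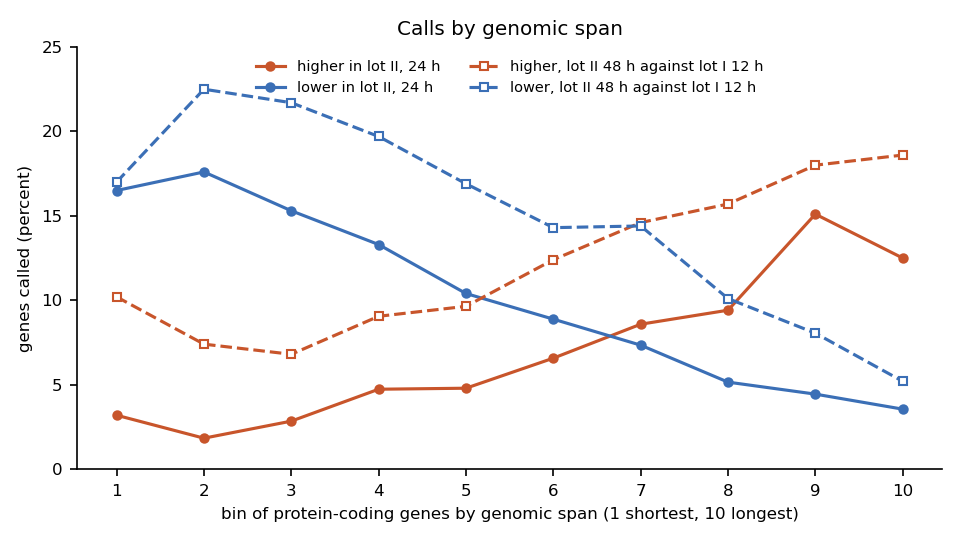
Share of protein-coding genes called (percent) in 10 equal bins by genomic span, from shortest to longest, for the 24 h lot comparison (filled circles) and lot II at 48 h against lot I at 12 h (open squares), higher in orange and lower in blue. At 24 h the share of lower genes goes from 16.5% in the shortest bin to 3.55% in the longest, and that of higher genes from 3.19% to 12.5%.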

How the data were processed

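The table holds log2 values that the authors made by RMA in Affymetrix Power Tools 1.10.2, per the submitters' processing notes, which also name limma. RMA corrects background, quantile normalizes and summarizes probes. The sources used here do not state a genome build, or whether RMA ran once over both lots. Of 33297 probe sets, 19460 had 1 gene symbol in the platform annotation, 1754 several and 12083 none. The brightest probe set was used for each of 769 genes with more than 1, leaving 18417 genes. Probe sets with several symbols were not used as genes.

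Differences were tested with limma 3.58.1 (R 4.3.3, moderated linear models) on the 16 untreated arrays in 4 groups, with 12 residual degrees of freedom. Benjamini-Hochberg adjustment ran over all genes at a threshold of 0.05, and ± after a difference is its standard error. In simulated data, 64% of differences of 0.5 and 98% of differences of 1 (log2) were recovered over 18417 genes, with 3 wrong among 165 calls. The simulation drew the arrays independently and changed far fewer genes than were called here. Its rates therefore check the fit and need not hold for the calls in these data. Replicate numbers were not used for pairing. Gene types, spans, promoters and miRNA sequences came from RefSeq (GRCh38.p14), matched by gene number.

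The comparison and the 39 gene lists were chosen with earlier results of these data known, so their counts are descriptions. Named genes were the 12 largest differences each way among called genes without overlap, up to 4 called members per list by p, the 6 widest gaps each way over 40 arrays, and 22 fixed genes of which 20 were measured. A further 13 were added after their values were seen. SPARC, EPCAM, FOXA1, AXL, PGR and GATA3 are given as listed markers of the line, outside these rules. Alternatives were other sets of arrays, normalizations, filters, probe-set rules, weights, blocks and leaving out each array.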

Additional observations from a re-analysis of the deposited data

Results flagged for a closer look

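Among 354 groups of 4 arrays of named genes, 15 (4.24%) had 1 array far from the other 3, near the 1 in 20 that chance flags. In lot II at 24 h, replicate 1 stood high for SNORD61, at 6.02 against 5.45 to 5.5, for FTL at 11.7 against 11.42 to 11.47 and for PSMB8 at 8.38 against 8.14 to 8.17. The same array stood low for PTPN14 at 9.64 against 9.84 to 9.85 and for FN1 at 9.98 against 10.2 to 10.23. Replicate 4 of lot II stood high for MT1X at 11.17, IFI6 at 7.65 and MIRLET7E at 4.79, where the others reached 11.03, 7.33 and 4.35, and low for SNORD44 at 10.72, where the others began at 11.11.

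In lot I at 24 h, replicate 1 stood low for NEU1 at 8.72 and BAX at 9.46, where the others began at 9.2 and 9.71. Replicate 4 stood low for PCNA at 10.3 and NDUFB8 at 9.45, where the others began at 10.54 and 9.82, and high for the vault RNA gene VTRNA1-3 at 6.2, where the others reached 5.85. Replicate 3 stood high for MVK at 8.31, where the others reached 8.13.

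The lot difference at 24 h differed from that of lot II at 48 h against lot I at 12 h at 71 genes in limma, by a test of the difference itself.

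The probe sets that the annotation does not list with a gene, used in no comparison above, had 24.8% called at 24 h, 3002 of 12083, of which 1719 were higher and 1283 lower.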

How the results depend on the processing

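Of the 158 named genes that were called, none changed direction in the alternatives run and 114 kept the call in every one. At 24 h, array weights gave 4861 calls (2073 higher, 2788 lower), and treating all probe sets alike, chosen after seeing the data, gave 6730 (3361 higher, 3369 lower). Leaving out 1 array gave 2018 to 2987 calls, with 810 to 1268 higher and 1208 to 1719 lower. For lot II at 48 h against lot I at 12 h, all probe sets gave 7689 (3487 higher, 4202 lower), and leaving out 1 array, chosen after seeing the data, gave 3471 to 5295, with 1448 to 2390 higher and 2023 to 2905 lower. Over all 40 arrays, new quantile normalization gave 89 genes above in all of lot II, not 49. The run of all probe sets tests more features, and its share called was 20.2% beside 17.1% of genes. Leaving out an array tests fewer samples, yet without lot II replicate 1 at 48 h the second set had 5295 calls, above its 4924. The causes of these changes were not tested. With the replicate number as a block, 3469 genes were called at 24 h, of which 3052 were called without it. Same-numbered arrays of the lots had deviations that correlated at -0.05 to 0.05. Of 4 lot I arrays, 1 correlated best with its own number. The numbers therefore gave no sign of pairing arrays of lot I with arrays of lot II. Within a lot, same-numbered arrays correlated at 0.261, which the main fit did not model. With lot and number as a random block, 3166 genes were called at 24 h. The 4 arrays per group limit precision, and low probe sets such as SNORD113 to SNORD116 carry little signal over background.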

Other observations

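Among the probe sets without a listed gene, the 4203 numbered below the first listed one had 31.5% called at 24 h, 1059 higher and 265 lower, with a median difference of 0.21. The 7880 numbered above it had 21.3% called, 660 higher and 1018 lower, with a median of -0.06. The largest rise among them was 3.04 and the largest fall -1.96.

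Of 13 genes of nuclear small RNAs and RNA polymerase III 4 were lower and 0 higher, 30.8% called beside 17.1% of all genes, with a median of -0.29. Without lot II replicate 1 or 3, 2 and 1 were lower.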
